A study of Mus musculus with 6 samples.

Results

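The subject is the set of cornified envelope precursor genes that begin with Lce (late cornified envelope) or Sprr (small proline-rich protein) and a digit, together with Lor (loricrin), Ivl (involucrin) and Crct1, in mouse corneal epithelium with and without Rela. The members were taken by gene symbol alone, and 38 of the 17866 genes in the deposited table met the rule. They were 21 Lce genes (14 Lce1, 6 Lce3 and Lce6a), 14 Sprr genes (Sprr1a, Sprr1b, 10 Sprr2, Sprr3 and Sprr4), Lor, Ivl and Crct1. Lelp1 was not analysed here. All 38 lay on GRCm38 chromosome 3 between positions 92080271 and 93019061, a stretch of 939 kb within the epidermal differentiation complex.

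When a stratified keratinocyte differentiates terminally, transglutaminases cross-link a set of precursor proteins into a rigid layer under its plasma membrane, the cornified envelope. Involucrin is an early scaffold of this layer, loricrin is the bulk protein of the epidermal envelope, SPRR proteins act as cross-bridges between other precursors, and LCE proteins are added late, mostly in skin. The central cornea is covered by a stratified epithelium that normally stays non-keratinized, and its keratin is K12.

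The libraries were bulk RNA-seq of corneal epithelium taken from C57BL/6 mice at 6 months of age, with 3 wild-type (WT) samples and 3 Rela-/- (KO) samples, each a separate biological sample. Rela encodes the p65 subunit of NF-κB, and the study removed it with Krt14-Cre from a floxed allele (Krt14-Cre; Rela f/f), so that the deletion also reached other K14-expressing epithelia such as conjunctiva, meibomian gland, skin and oral mucosa. The labels call the control samples WT and give no further allele for them. Because the samples were bulk tissue, fewer cells of a type and less RNA per cell cannot be told apart.

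Each library held between 20158404 and 20880347 estimated counts. Rela itself had 1871, 1844 and 1855 counts in WT, against 318, 223 and 313 in KO. The listed markers of corneal epithelium (Krt12, Krt5, Pax6, Aldh3a1 and Tkt) were present in every library. Their summed level was 91445 to 94809 CPM (counts scaled to an equal library total) in WT and 21192 to 23781 CPM in KO. Krt5 alone had a mean of 26958 CPM in WT and 10547 CPM in KO. A single WT library stood apart for the genes described here. Of the 22 members with any count in WT, WT replicate 2 was the highest WT library in CPM for 19. Leaving it out moved the fold change of 16 members by more than 1.5 times. For 4 of these 16, Lce3e, Lce1b, Lce1a2 and Sprr2b, the counts in WT were so few that a ratio with an interval is given below, followed by the value without that library, and for the others both fitted values are given.

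In the KO epithelium nearly all of these genes were higher than in WT, and many were not detected in WT at all. Of the 38 members, 36 had their lowest KO library above their highest WT library, beside 30.2% of the 13305 genes tested. Only Ivl was lower in KO, and only Sprr4 overlapped between the groups. At an adjusted p of 0.05 (edgeR quasi-likelihood test, adjusted over all genes tested) 35 members were higher in KO, 13 of them Sprr and 20 Lce, where 31.8% of all tested genes were higher. The 1 lower member compares with 30.2% of tested genes that were lower. At the threshold of the study, an adjusted p of at most 0.001 with a fold change of at least 2, 33 members were higher beside 11.6% of tested genes. Of the 36 members that had enough counts for a test, 32 passed the filter on low counts only through the KO libraries and so had to differ, which leaves their counts and median as a description. Sprr1a, Lce3a, Crct1 and Ivl were the 4 whose WT libraries all exceeded the filter, and 3 of these 4 were higher in KO. The median log2 fold change of the 36 tested members was 9.88, or 8.46 with the members at 0 in WT set to their lower bound, and that of all tested genes was 0.01.

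**Figure D1:**
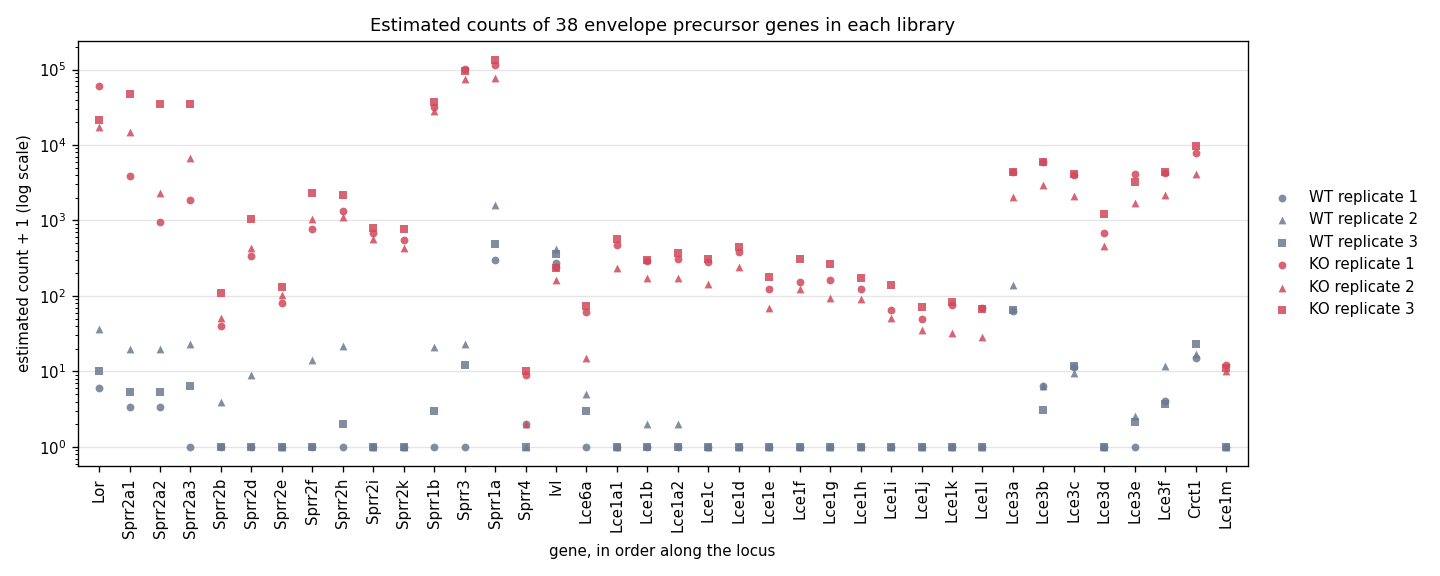
Estimated count plus 1 on a log scale for each of the 38 genes, in their order along the locus. Each symbol is 1 library, grey for WT and red for KO. For Sprr1a the WT libraries lay between 299 and 1606 counts and the KO libraries between 76033 and 133874, while for Ivl the KO symbols lay below the WT symbols.

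Near-identical sequence limits how far single genes of these families can be read. A single-end read of 50 bases that matches several genes is divided among them by RSEM, the program that produced the counts, and 31 of the 38 members had a count that was not a whole number in at least 1 library. The 7 with whole counts throughout were Lor, Sprr2k, Sprr3, Sprr4, Lce6a, Crct1 and Lce1m. Among all windows of 50 bases in the longest GENCODE M21 transcript of each gene, only 3.72% of those of Sprr2a1 and 3.55% of those of Sprr2a2 occurred in no other gene, and 38.9% for Sprr2a3. The share was 50.7% for Lce3d, 52% for Lce3f and 56.3% for Lce3e, between 72.9% and 90.9% for the Lce1 genes other than Lce1m, and 100% for Sprr1a, Sprr1b, Sprr3, Lor and Crct1. Only exact matches were searched, so 100% does not exclude shared reads: the KO counts of Sprr1a and Sprr1b were not whole numbers. Sequences of 50 bases inside the coding region that the most members of a family share are shown because a read from them cannot be assigned to a gene. They are in the sense direction, from GRCm38, at chr3:92219092-92219141 (plus strand) in Sprr2a1, chr3:92646822-92646871 (minus strand) in Lce1a1 and chr3:92925568-92925617 (minus strand) in Lce3a.
Sprr2: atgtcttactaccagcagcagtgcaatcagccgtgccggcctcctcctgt
Lce1: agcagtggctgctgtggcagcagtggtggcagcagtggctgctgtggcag
Lce3: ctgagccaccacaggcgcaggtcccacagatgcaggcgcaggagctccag
The Sprr2 window began at the start codon and was shared by Sprr2a1, Sprr2a2 and Sprr2a3, 3 of the 10 Sprr2 genes. The Lce1 window, a run of glycine, serine and cysteine codons, was found in 10 of 14 Lce1 genes and in Gm38119, a gene outside the family, and the Lce3 window in all 6 Lce3 genes.

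**Figure D2:**
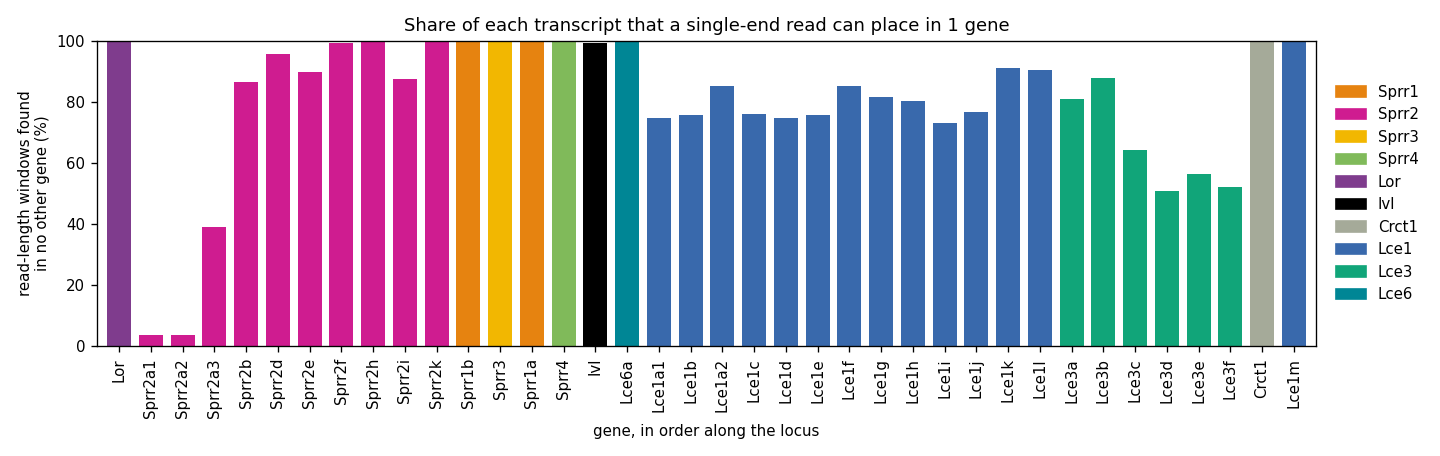
Bars give, for each gene along the locus, the percentage of 50-base windows of its longest transcript found in no other gene, with colours marking the family. Sprr2a1 and Sprr2a2 stood at 3.72% and 3.55% and the Sprr1 genes, Sprr3, Lor and Crct1 at 100%.

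Sums over a family do not depend on how reads were divided inside it, but can still hold a part of reads shared with genes outside it. The summed Sprr1 counts were whole numbers in all 6 libraries within 0.02. The sums were whole in 4 of the 6 libraries for Sprr2, in 5 for Lce1 and in 4 for Lce3. The Sprr1 sum was 299, 1626 and 483 in WT and 145793, 104063 and 170592 in KO (log2 fold change 7.56, edgeR adjusted p = 4.3e-05, SE 0.709), or 8.59 without WT replicate 2. The Sprr2 sum was 5, 104 and 15 in WT and 10501, 27575 and 123722 in KO (log2 fold change 10.45, edgeR adjusted p = 0.000268, SE 1.38). This value was 12.48 without WT replicate 2 and 8.95 without KO replicate 3, the libraries that held most of the Sprr2 counts of their groups. The Lce3 sum was 81, 167 and 81 in WT and 23465, 11463 and 23273 in KO (log2 fold change 7.58, edgeR adjusted p = 3.33e-06, SE 0.435). The Lce1 genes had 2 counts in all of WT, both in WT replicate 2, against 2571, 1491 and 3280 in KO. None of the family sums given here overlapped between the groups, beside 30.2% of tested genes whose lowest KO library lay above the highest WT library.

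The Sprr1 and Sprr3 genes were the most abundant members in KO. Sprr1a, whose protein is a cross-bridging precursor of squamous and injured epithelia, was also the member with the most counts in WT, at 299, 1606 and 481, and had 114131, 76033 and 133874 in KO. Every KO library lay far above every WT library, although WT replicate 2 was several times the other WT libraries. The KO mean was 146-fold the WT mean (log2 fold change 7.19, edgeR adjusted p = 5.52e-05, SE 0.702), and the log2 fold change was 8.22 without WT replicate 2. Sprr1b (chromosome 3, positions 92436809 to 92438817, minus strand), a marker of squamous change at the ocular surface, had 0, 20 and 2 counts in WT, against 31662, 28030 and 36718 in KO. The KO libraries were within 1.31 times of each other. The ratio of the means was 4727-fold (log2 fold change 12.18, edgeR adjusted p = 2.53e-06, SE 0.651), with a log2 fold change of 14.91 without WT replicate 2. Sprr3, best known from the non-keratinized lining of mouth and oesophagus, had 0, 22 and 11 counts in WT, against 101054, 73995 and 96280 in KO. The means differed 8868-fold (log2 fold change 13.10, edgeR adjusted p = 1.97e-06, SE 0.655), the highest ratio among the members with more than 3 counts in WT. Without WT replicate 2 its log2 fold change was 14.08. Sprr4 (positions 92500263 to 92500493) had too few counts for a test, with 1, 0 and 0 in WT and 8, 1 and 9 in KO.

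The 10 Sprr2 genes lie next to each other between Lor and Sprr1b, and Sprr2a1, Sprr2a2 and Sprr2a3 carried most of their reads. In WT the counts of Sprr2a1 and Sprr2a2 were the same in each library, 2.35, 18.6 and 4.31. In KO, Sprr2a1 had 3879, 14782 and 46921 counts and Sprr2a2 had 968, 2341 and 34882. Sprr2a3 had 0, 21.9 and 5.37 counts in WT, against 1867, 6699 and 34559 in KO. For all 3 genes KO replicate 3 was far above the other KO libraries, and each KO library was above all WT libraries. Their log2 fold changes were 11.44 (SE 1.23), 10.65 (SE 1.8) and 10.72 (SE 1.45), with adjusted p-values of 8.96e-05, 0.00106 and 0.000315 in edgeR. Without KO replicate 3 they were 10.22, 7.72 and 8.98, and without WT replicate 2 they were 12.87, 12.09 and 12.51. Summed over the 3 genes, which removes the division of reads among them, the counts were 5, 59 and 14 in WT and 6714, 23821 and 116362 in KO, so the highest KO library had 17.3 times the lowest.

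The other 7 Sprr2 genes were more even between KO libraries, whose highest count was between 1.41 and 3.08 times the lowest. Per transcript (TPM) they together took 0.0523%, 0.0523% and 0.0992% of the total in KO replicates 1, 2 and 3. Sprr2a1, Sprr2a2 and Sprr2a3 together took 0.032%, 0.114% and 0.554%. The 7 genes were thus lower than those 3 in KO replicates 2 and 3 but not in KO replicate 1. Sprr2h had 0, 21 and 1 counts in WT, against 1333, 1128 and 2180 in KO (log2 fold change 7.80, edgeR adjusted p = 2.26e-05, SE 0.64). Sprr2f had 0, 13 and 0 counts in WT, against 762, 1056 and 2347 in KO (log2 fold change 8.39, edgeR adjusted p = 4.4e-05, SE 0.782). Sprr2d had 0, 8 and 0 counts in WT, against 339, 431 and 1040 in KO (log2 fold change 7.86, edgeR adjusted p = 6.34e-05, SE 0.789). For these 3 genes nearly all WT reads were in WT replicate 2, without which the fitted log2 fold change of Sprr2h was 11.37. Sprr2f and Sprr2d then had no WT count left. Their fitted values of 13.48 and 12.28 thus have no measured WT level behind them and are not estimates of size. Without KO replicate 3, Sprr2f and Sprr2d stood at 7.78 and 7.22. Sprr2i, Sprr2k and Sprr2e had 0 counts in all WT libraries. For such genes the fold is given as a lower bound against 3 counts over the WT group, a limit for counting error alone. Sprr2i had 675, 561 and 791 counts in KO and was at least 729-fold higher (edgeR adjusted p = 2.52e-06). Sprr2k, whose reads match no other gene, had 559, 425 and 763 and was at least 628-fold higher (edgeR adjusted p = 1.08e-05). Sprr2e had 80.6, 101 and 130 and was at least 112-fold higher (edgeR adjusted p = 3.36e-05). These KO libraries lay close together compared with those of Sprr2a1, Sprr2a2 and Sprr2a3. Sprr2b was the lowest of the family in KO, with 2.92 counts in WT replicate 2, 0 in the other WT libraries and 38.8 to 109 counts in KO, a 73.3-fold ratio with an exact Poisson interval of 24.4 to 346. All of its WT counts were in WT replicate 2, and the interval covers counting error only. The log2 fold change of Sprr2b in edgeR was 5.98 with all libraries. Without WT replicate 2 it was 9.10, but no WT count was left, so that value is not an estimate of size.

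Lor and Ivl, the classic late and early precursors of the epidermal envelope, went opposite ways. Lor (positions 92080271 to 92084950) was nearly undetected in WT, where no library exceeded 35 counts, and reached 60349 counts in KO replicate 1 against 17282 and 21709 in the other KO libraries. Its log2 fold change was 11.09 in the fit of all libraries, 10.31 without KO replicate 1 and 12.3 without WT replicate 2. Ivl (positions 92570899 to 92573790, minus strand) had 272, 416 and 358 counts in WT, against 244, 163 and 235 in KO. The groups did not overlap, but the lowest WT library and the highest KO library were close. The KO mean was 0.663 times the WT mean (log2 fold change -0.60, edgeR adjusted p = 0.0333, SE 0.206). That call was lost without WT replicate 2 (log2 fold change -0.45, edgeR adjusted p = 0.106), without WT replicate 3 (-0.55, adjusted p = 0.089) and without KO replicate 2 (-0.43, adjusted p = 0.0964), and it was held in 12 of 17 alternative fits.

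The Lce3 genes, known in skin for their rise after barrier injury, were the most abundant Lce genes. Lce3a was the Lce gene with the most counts in WT, at 62.2, 141 and 64.2, and had 4354, 2048 and 4402 in KO. The lowest KO library was far above the highest WT library. The means differed 43.6-fold, the least of the Lce3 genes (log2 fold change 5.45, edgeR adjusted p = 1.64e-05, SE 0.421). Lce3b had 5.42, 5.35 and 2.05 counts in WT, against 5952, 2958 and 5870 in KO (log2 fold change 10.33, edgeR adjusted p = 1.01e-06, SE 0.439). Lce3c had 10.4, 8.57 and 10.9 counts in WT, against 4053, 2104 and 4186 in KO (log2 fold change 8.52, edgeR adjusted p = 1.11e-06, SE 0.37). Lce3f had 3.01, 10.7 and 2.72 counts in WT, against 4300, 2199 and 4365 in KO (log2 fold change 9.40, edgeR adjusted p = 1.74e-06, SE 0.457), or 10.29 without WT replicate 2. KO replicates 1 and 3 were nearly equal for each of these, and KO replicate 2 was lower. Lce3e had 2.71 counts in all of WT and 4131, 1693 and 3223 in KO, a 3601-fold ratio with an exact Poisson interval of 1113 to 15772, and its log2 fold change of 11.49 in edgeR was 12.34 without WT replicate 2. Lce3d had 0 counts in WT, against 675, 461 and 1228 in KO, at least 850-fold higher (edgeR adjusted p = 5.61e-05). Reads shared among Lce3c, Lce3d, Lce3e and Lce3f make the order of these genes uncertain.

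The Lce1 genes, which in skin are made in the granular layer, were at 0 in every WT library for 12 of the 14 members, and Lce1b and Lce1a2 had a single WT count each. All 13 tested Lce1 genes were higher in KO, beside 31.8% of all tested genes, with adjusted p-values from 3.94e-06 to 0.00031 in edgeR. All 13 passed the filter on low counts only through the KO libraries and so had to differ. The highest was Lce1a1 (positions 92646532 to 92648307, minus strand), with 473, 234 and 560 counts in KO, at least 455-fold above WT. Lce1d followed with 382, 245 and 449 counts, at least 387-fold higher. KO replicate 2 had the lowest count for both. Lce1a2 had 309, 173 and 369 counts, a 918-fold ratio with a Poisson interval of 165 to 36248, and Lce1b had 292, 170 and 301, an 823-fold ratio with an interval of 148 to 32500. The WT count of both was in WT replicate 2, without which the log2 fold change in edgeR went from 9.37 to 11.19 for Lce1a2 and from 9.21 to 11.04 for Lce1b. Neither gene then had a WT count left, so 11.19 and 11.04 are not estimates of size. Lce1c had 285, 142 and 305 counts and was at least 263-fold higher. These genes thus spanned a narrow range of levels in KO and kept the same order of libraries. Lce1f had 152, 123 and 310 counts (at least 210-fold), Lce1g 162, 94.4 and 265 (at least 187-fold). Lce1h had 124, 90.2 and 174 counts (at least 140-fold) and Lce1e 124, 68 and 179 (at least 133-fold). The remaining tested members, Lce1i, Lce1j, Lce1k and Lce1l, had between 28 and 139 counts per KO library, with Lce1i the highest, and were at least 54.6-fold to 91.3-fold higher. Lce1m lies apart from the other Lce1 genes, beyond Crct1, and had 11, 9 and 10 counts in KO and 0 in WT, too few for a test.

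Crct1, which encodes a small cysteine-rich protein and lies at the Lce3 end of the locus, had 14, 16 and 22 counts in WT, against 7795, 4089 and 9771 in KO. None of its reads matched another gene in the transcript search. The means differed 449-fold (log2 fold change 8.80, edgeR adjusted p = 1.61e-06, SE 0.419). Lce6a, the only Lce6 gene, had 0, 4 and 2 counts in WT, against 61, 14 and 72 in KO (log2 fold change 4.64, edgeR adjusted p = 0.0016, SE 0.847), or 5.55 without WT replicate 2. It was the smallest rise among the tested members.

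For the order given here, levels of different genes were compared as FPKM, which divides the reads by gene length and library total. Orders of genes within a family given above rest on counts. In KO the order was led by Sprr1a at 6799 ± 1744 FPKM, Sprr3 at 4072 ± 587 and Sprr1b at 1984 ± 255 (mean ± SD, n = 3), and the ranges of these 3 did not overlap. Lor followed at 901 ± 639 FPKM, Sprr2a3 at 832 ± 1012, Crct1 at 502 ± 194 and Lce3b at 445 ± 148, and the ranges of these 4 overlapped. Sprr2a1 had more counts than Sprr2a3 in each KO library but stood at 295 ± 298 FPKM. The place of Sprr2a3 thus rests on the length used for it and on how shared reads were divided. The highest Lce1 gene, Lce1a1, stood at 29.8 ± 11.5 FPKM and Ivl at 5.38 ± 1.03 FPKM. In WT the order was different, with Sprr1a at 49.9 ± 44.4 FPKM, Ivl at 8.67 ± 1.8 and Lce3a at 8.22 ± 4.13 ahead of all other members, the next being Crct1 at 1.2 ± 0.282 FPKM.

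The members as a set took 0.00326%, 0.0115% and 0.0047% of all estimated counts in the WT libraries and 1.7%, 1.19% and 2.15% in the KO libraries. The KO mean of 1.68% ± 0.48 and the WT mean of 0.00649% ± 0.0044 (SD, n = 3 per group) were apart by more than the spread (p = 0.1 in a two-sided exact permutation test, which cannot go lower with 3 against 3). Krt12, the corneal keratin, took 3.77% of the counts in WT and 0.69% in KO, less in KO than the envelope precursors. Per transcript (TPM), the share of the set was 0.0157% ± 0.0119 in WT and 3.23% ± 0.839 in KO. Within that TPM the Sprr1 genes were the main part in every library, between 54.6% and 75% in WT and between 48.1% and 51.5% in KO. Ivl made up 19.7%, 7.62% and 18% of it in WT and 0.033%, 0.0325% and 0.0264% in KO. Sprr3 went the other way, from at most 0.93% in WT to 24.5%, 26.4% and 19.4% in KO.

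**Figure D3:**
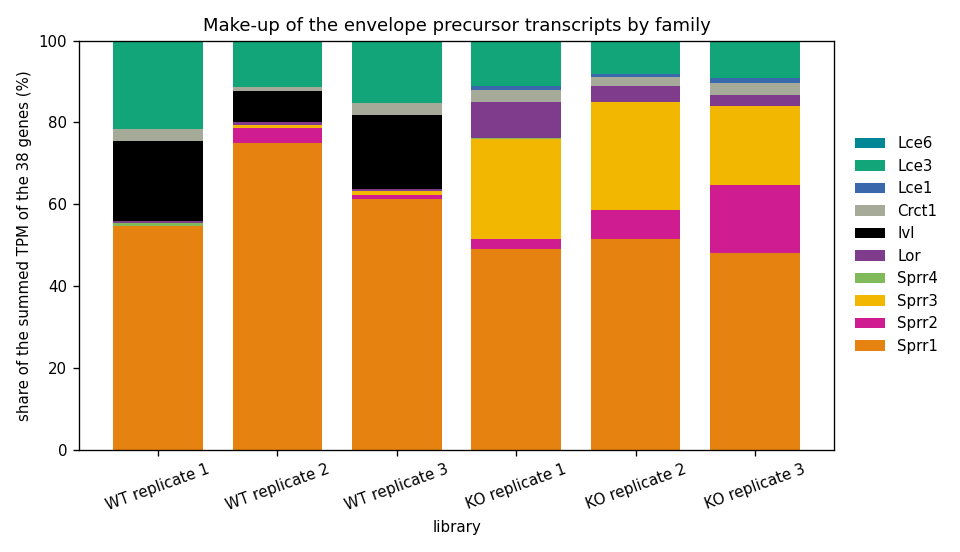
Stacked bars show how the summed TPM of the 38 genes divides among families in each library, in percent. Ivl fills up to 19.7% of a WT bar and is not visible in KO, while Sprr3 fills between 19.4% and 26.4% of the KO bars. The WT bars rest on a total of 0.00752% to 0.0294% of TPM.

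The 3 KO libraries differed among themselves in ways that followed the families. In CPM, KO replicate 2 was the lowest for all 21 Lce genes and for 31 of the 38 members. KO replicate 3 was the highest in CPM for 29 members, among them all 10 Sprr2 genes, and KO replicate 1 was the lowest for 7 of these 10. Yet in CPM KO replicate 1 was the highest for Lor, Sprr3, Ivl and 6 Lce genes. For Lce3a and Lce3f, which are among these, KO replicates 1 and 3 were nearly equal and the unscaled count was higher in KO replicate 3. In the make-up of TPM, Sprr2 took 2.47%, 7.18% and 16.5% in KO replicates 1, 2 and 3, and Lor took 8.84%, 3.73% and 2.65%. Of the epidermis markers in the same libraries, Krt1 and Flg were also uneven, whereas Krt10 was nearly even. Krt1 had 203120, 55117 and 101697 counts in KO replicates 1, 2 and 3, and Flg had 38492, 5709 and 6826. Krt10 had 146411, 124152 and 140382.5 counts. Lor and Flg were thus both highest in KO replicate 1, and the Sprr2 genes were not. The part of tissue make-up in this spread was not tested.

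**Figure D4:**
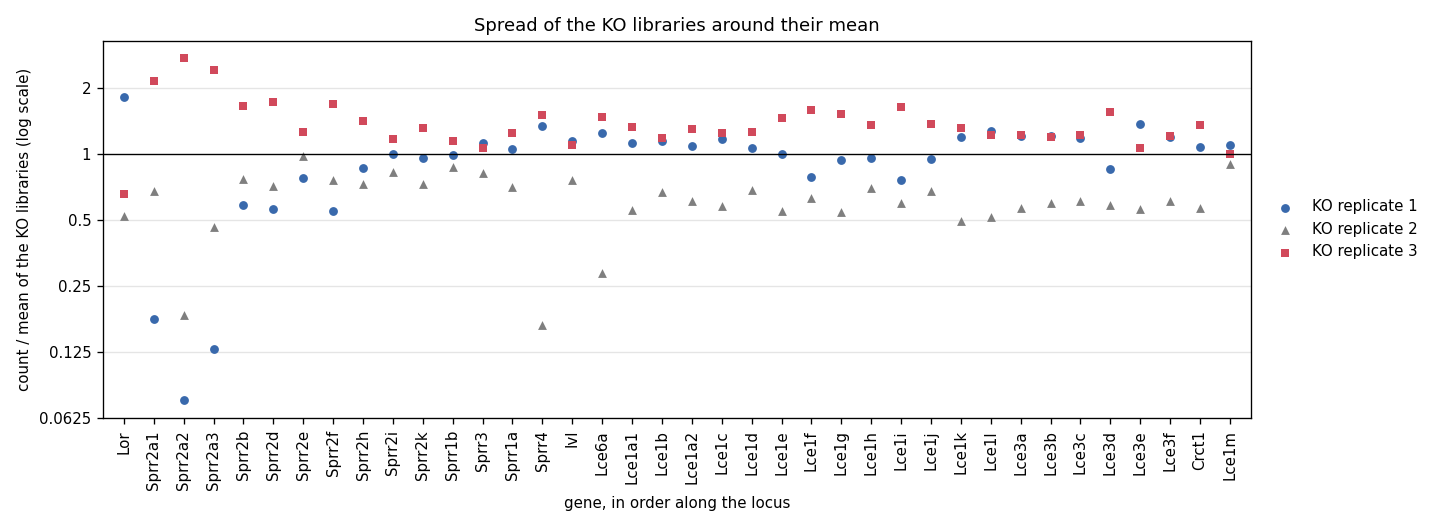
Count of each KO library divided by the mean of the 3 KO libraries, on a log scale, for the 38 genes along the locus. KO replicate 3 lies highest and KO replicate 1 mostly lowest for the Sprr2 genes, while KO replicate 2 lies lowest for every Lce gene and KO replicate 1 highest for Lor.

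Many markers of other tissues were also higher in KO, beside 31.8% higher and 30.2% lower of all tested genes. Some of them passed the filter on low counts only through the KO libraries, which favours a call of higher. These were 2 stroma and 2 leukocyte markers, and 1 marker each of epidermis, conjunctiva, sebaceous gland and endothelium. Of 5 epidermis markers 3 were tested and all 3 were higher in KO, with a summed level of 15.1 to 18.7 CPM in WT and 9279 to 19652 CPM in KO, although Krt2 had at most 3 counts in any library and Krt77 did not exceed 10. Of 5 conjunctiva markers 4 were higher and 1, Muc4, was lower, and their sum was 9091 to 11196 CPM in WT and 55972 to 69731 CPM in KO. Muc5ac, the goblet cell mucin, was at 0 in WT and at 141, 15 and 214 counts in KO. All 5 corneal markers were lower. Hair follicle markers summed to 3.03 to 7.37 CPM in WT and 10.4 to 11.2 in KO, where Tchh was the only tested gene and was higher, stroma markers to 0.687 to 2.61 and 12.8 to 22.5 CPM with all 3 tested genes higher, and sebaceous gland markers to 1.07 to 1.63 and 2.17 to 2.74 CPM with 1 of 2 tested genes higher. Endothelium markers reached at most 0.897 CPM, with the 1 tested gene higher, and muscle markers at most 0.763 CPM, with none tested. Leukocyte markers summed to 238 to 318 CPM in WT and 227 to 295 in KO, but this sum was mostly Itgam, which was lower (266 CPM in WT and 175 in KO on average). The other 3 tested leukocyte markers were higher, with means of 0.402 CPM in WT and 5.27 in KO for Ptprc, 7.99 and 64.3 for Cd74, and 0.0626 and 9.39 for Lyz2. Whether the levels of the members follow the share of epidermal or conjunctival cells in a sample was not tested.

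Genes that act with these precursors in the envelope were described from a list of 21 other proteins and enzymes, of which 19 were tested. In KO 14 were higher, 2 were lower and 3 did not pass, beside 31.8% higher and 30.2% lower of all tested genes, and the median log2 fold change was 2.03. Hrnr, Krtdap, Rptn and Flg were the 4 that passed the filter on low counts only through the KO libraries and so had to differ. The largest rises were in Hrnr, Krtdap and Rptn. Hrnr (hornerin), a fused S100 protein like filaggrin, had 1 count in all of WT and 16714, 6834 and 3879 in KO, a 29583-fold ratio with a Poisson interval of 5309 to 1168449. Krtdap, a secreted keratinocyte protein, had a log2 fold change of 13.90, and Rptn (repetin), an envelope protein of the same type, had one of 13.19 (edgeR adjusted p = 2.32e-06) with 2, 14 and 5 counts in WT, against 96454, 32567 and 55728 in KO. The groups were far apart for all 3. At the other end, a pair of the plakins on the list were lower, and Dsp (desmoplakin), the third, did not pass (log2 fold change 0.24, edgeR adjusted p = 0.249). Evpl (envoplakin) had 63391, 57160 and 58446 counts in WT, against 32407, 19561 and 21769 in KO (log2 fold change -1.17, edgeR adjusted p = 0.000949). Ppl (periplakin) had a log2 fold change of -0.61 (edgeR adjusted p = 0.00681). The smallest rise that passed was Casp14, a protease of the upper epidermis, at 1.18 (edgeR adjusted p = 0.000738). Of the cross-linking enzymes, Tgm1 was 2.03 higher on the log2 scale, Tgm5 1.32 and Tgm3 10.63.

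Of 25 factors known to act on genes of this locus or on barrier formation, 24 were tested, and 6 were higher, 6 lower and 12 not past the threshold, with a median log2 fold change of -0.07. The 6 higher and 6 lower of 24 are no more than the 31.8% higher and 30.2% lower of all tested genes. Fosl1, among the higher, passed the filter on low counts only through the KO libraries and so had to differ. Rela, among the lower, is the deleted gene. The largest rises were in Fosl1, Nfe2l2 and Ovol1. Fosl1, an AP-1 subunit, had 2.24 counts in all of WT and 120, 40.5 and 243 in KO, a 194-fold ratio with a Poisson interval of 60.2 to 1797. Nfe2l2, a stress-response factor that acts on Lce and Sprr genes in skin, had 2090, 2098 and 2039 counts in WT, against 9267, 11085 and 9443 in KO (log2 fold change 2.37, edgeR adjusted p = 1.28e-06, SE 0.106). Ovol1, which restrains keratinocyte proliferation, had a log2 fold change of 1.64 (edgeR adjusted p = 0.000394). The lowest were Satb1, an organizer of this locus in epidermis, at -3.53 (edgeR adjusted p = 1.48e-06), Rela itself at -2.60 and Elf3, an epithelial ETS factor, at -1.10 (edgeR adjusted p = 0.000266). Satb1 had 1008, 715 and 930 counts in WT, against 67, 67 and 79 in KO. Among the other AP-1 genes, Fosl2 was lower at -1.04 (edgeR adjusted p = 8.24e-05), and Jun, Junb, Jund and Fos did not pass, with log2 fold changes between -0.36 and 0.26.

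Some neighbours of the members in the locus were also higher in KO, and others were not. Between Lor and Lce1m the table listed 42 genes, of which 4 were not members, and Kprp, a keratinocyte proline-rich protein, was the only tested one of these, with a log2 fold change of 4.47 (edgeR adjusted p = 0.000157). Prr9, Smcp and 2310050C09Rik had at most 25 counts in any library. Beyond the members, the fused S100 genes Crnn, Flg and Rptn were higher by 6.12 to 13.19 on the log2 scale and Tchh, also of this type, by 1.33 (edgeR adjusted p = 0.0094). Hrnr and, on the other side, Pglyrp3 were higher too and had 1 count each in all of WT. At the far end of the plotted stretch S100a10 and S100a11, which did not pass, had log2 fold changes of 0.12 and 0.30. Ivl, at 490.6 kb from the start of Lor, lay between higher members on both sides.

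**Figure D5:**
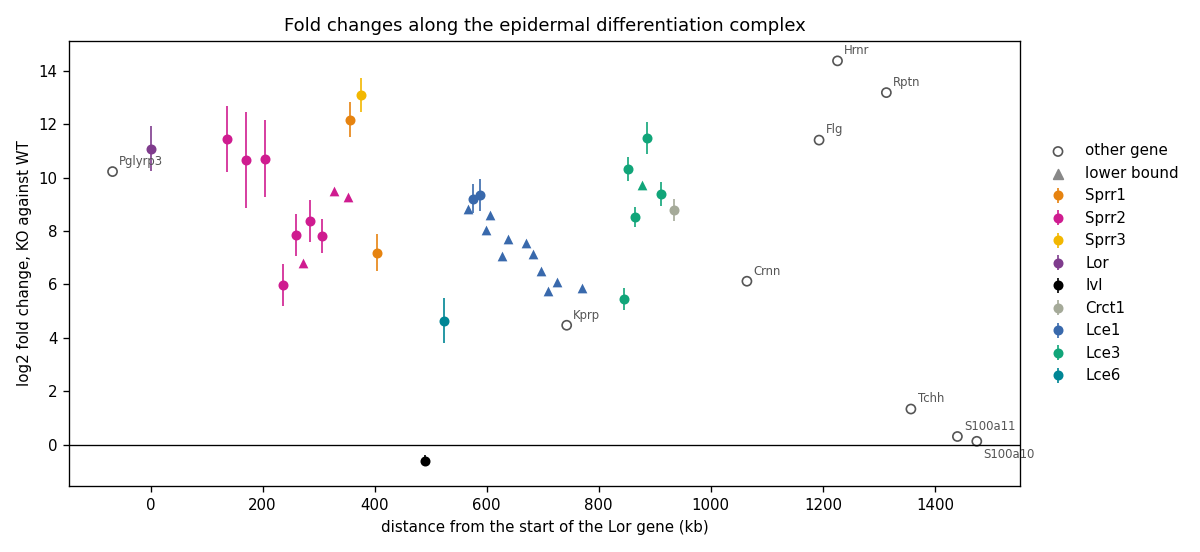
Log2 fold change of KO against WT by distance from the start of Lor in kb. Filled circles are members with their standard error, coloured by family, triangles are lower bounds for members at 0 in WT, and open circles are other tested genes. Ivl is the only point below 0, and S100a10 and S100a11 lie near 0.

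The sequence before each start was compared because members that moved together, and Ivl, which did not, can be set side by side. RefSeq (GRCm38.p6) gave a window of 250 bases before and 50 bases after the start for 36 of the 38 members, all but Lce1f and Crct1. TATAAA, the letters of the TATA box, was found in 16 of the 36 windows on either strand, beside 13.6% of all 32851 windows in the table. It began 218 and 243 bases before the start in Lce6a and Lce3e, against 27 to 43 bases in the others. The 7 Sprr2 windows with it come from 1 family and are not independent cases. TGANTCA (the AP-1 site) was in 11 of 36, beside 7.81%, and ATTTGCAT (the octamer bound by POU factors) in 7 of 36, beside 1.74%. The NF-kB consensus of degenerate letters was in 0 of 36, beside 4.51%, which says only that these letters are not in these windows. No motif overlapped another. The 7 windows with an octamer were those of Sprr2b, Sprr2d, Sprr2e, Sprr2f, Sprr2h, Sprr2i and Sprr2k, in which the octamer began 108 to 112 bases before the start, TATAAA 29 bases before it and an AP-1 site 193 to 198 bases before it. Sprr1a held AP-1 sites at 146 and 116 bases and Ivl held an AP-1 site at 116 bases, so the site did not separate the lower gene from the higher ones. None of the Lce windows held an AP-1 site. Sprr2a1, Sprr2a2 and Sprr2a3 held none of the 4 motifs, and the start of Sprr2a1 in the annotation, at position 92215835, lay well before its start codon at 92219092.

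The 250 bases before the start are shown for the member with the highest KO level per length in Sprr1, Sprr2, Lce1 and Lce3, and for Ivl, Sprr2d and Sprr2k, which were added after their values were seen. Capitals mark TATAAA, the AP-1 site and the octamer. The positions in GRCm38.p6 are chr3:92485882-92486131 (minus strand) for Sprr1a, chr3:92573736-92573985 (minus strand) for Ivl, chr3:92338890-92339139 (plus strand) for Sprr2d, chr3:92432332-92432581 (plus strand) for Sprr2k, chr3:92285054-92285303 (plus strand) for Sprr2a3, chr3:92648308-92648557 (minus strand) for Lce1a1 and chr3:92932729-92932978 (plus strand) for Lce3b.
Sprr1a: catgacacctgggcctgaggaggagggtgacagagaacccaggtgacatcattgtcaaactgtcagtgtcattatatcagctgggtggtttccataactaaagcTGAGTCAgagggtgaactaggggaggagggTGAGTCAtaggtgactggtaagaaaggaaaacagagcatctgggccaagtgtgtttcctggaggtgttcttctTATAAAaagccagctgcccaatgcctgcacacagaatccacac
Ivl: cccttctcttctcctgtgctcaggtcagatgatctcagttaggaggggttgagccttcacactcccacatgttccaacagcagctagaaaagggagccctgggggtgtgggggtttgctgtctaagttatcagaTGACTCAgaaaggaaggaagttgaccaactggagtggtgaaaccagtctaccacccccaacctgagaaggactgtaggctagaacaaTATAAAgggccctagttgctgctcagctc
Sprr2d: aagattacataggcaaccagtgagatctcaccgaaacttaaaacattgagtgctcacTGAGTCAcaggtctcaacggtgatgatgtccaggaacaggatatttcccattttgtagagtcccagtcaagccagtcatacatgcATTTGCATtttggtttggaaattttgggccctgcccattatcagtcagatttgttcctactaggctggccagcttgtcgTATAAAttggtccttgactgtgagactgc
Sprr2k: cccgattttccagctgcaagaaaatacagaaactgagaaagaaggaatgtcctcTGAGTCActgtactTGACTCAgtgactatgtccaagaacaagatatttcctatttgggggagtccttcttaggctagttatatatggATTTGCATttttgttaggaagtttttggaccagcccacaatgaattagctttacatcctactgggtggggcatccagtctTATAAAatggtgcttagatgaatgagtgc
Sprr2a3: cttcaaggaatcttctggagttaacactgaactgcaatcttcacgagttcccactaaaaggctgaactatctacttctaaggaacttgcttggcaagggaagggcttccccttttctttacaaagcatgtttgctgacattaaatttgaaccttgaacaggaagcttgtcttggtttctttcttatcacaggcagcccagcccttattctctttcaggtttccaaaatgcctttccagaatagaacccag
Lce1a1: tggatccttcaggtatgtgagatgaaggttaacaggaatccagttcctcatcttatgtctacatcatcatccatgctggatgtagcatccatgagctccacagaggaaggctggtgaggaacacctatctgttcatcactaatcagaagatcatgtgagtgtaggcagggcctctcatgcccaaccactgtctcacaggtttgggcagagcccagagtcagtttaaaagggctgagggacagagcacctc
Lce3b: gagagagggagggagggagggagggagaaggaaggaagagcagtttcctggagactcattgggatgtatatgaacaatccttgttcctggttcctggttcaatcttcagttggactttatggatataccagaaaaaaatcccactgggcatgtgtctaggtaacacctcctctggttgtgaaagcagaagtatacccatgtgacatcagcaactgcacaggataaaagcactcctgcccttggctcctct
Sprr2d and Sprr2k share the order of AP-1 site, octamer and TATAAA, and Sprr2k holds a pair of AP-1 sites, at 196 and 182 bases. Lce1a1 and Lce3b, 2 of the genes that were at or near 0 in WT, hold none of the 3 marked motifs.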

How the data were processed

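RNA-seq libraries of corneal epithelium from 3 WT and 3 KO mice were analysed, with groups taken from the genotype labels. The authors made the deposited table by filtering single-end reads of 50 bases with SOAPnuke, aligning them with Bowtie2 2.2.5 and quantifying them with RSEM 1.2.12, and it holds estimated counts, FPKM and TPM for each gene and library. As deposited, FPKM is scaled by effective length and sequencing depth, and TPM was scaled by the authors to a fixed sum in each library. The study's methods name a BGI instrument and rRNA depletion, the labels an Illumina kit. The processing notes name the build mm9, whereas the chromosome accessions in the table are those of GRCm38. Lor is on the plus strand in the table and on the minus strand in RefSeq. A DESeq2 comparison by the authors is part of the table, with its log2 fold changes and p-values, and was not used. Whether counting used strand is not given in the sources used here.

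The 38 members, the lists and the tests were chosen with earlier results of these data known. All genes entered 1 fit: counts were made whole by rounding, kept where filterByExpr allowed (a CPM of 0.482 in at least 3 libraries) and tested with edgeR 4.0.16 under R 4.3.3, using TMM scaling, the quasi-likelihood functions glmQLFit and glmQLFTest, and genotype as the sole term. P-values were adjusted by Benjamini-Hochberg over 13305 genes. The SE is the absolute log2 fold change over the square root of F. TMM factors were 1.01 to 1.05 in WT and 0.952 to 0.99 in KO. Family sums were fitted in the same way with the members of a family added up. Members with a mean count of at least 100 in either group are given by library and the others by range. From the lists of partners and regulators the 3 highest and 3 lowest log2 fold changes were taken among called genes with that mean count, and further genes were named after their values were seen. Shares were compared by an exact permutation test (scipy 1.17.1). Intervals are exact Poisson limits at 95% on the WT count and, like floors, cover counting error only. The tests were checked on simulated counts with 200 changed genes.

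As alternatives, DESeq2 1.42.0 was run, and edgeR with RLE factors, total counts, TMM without the 20 genes of highest mean, no filter, a mean count of at least 50, limma 3.58.1 on log2(FPKM + 1) and log2(FPKM + 0.1), a gene length offset, the replicate number as a block, glmTreat, and leaving out each library. Krt85, Mc5r, Elovl3, Cdh5 and Emcn of the marker lists were not analysed here.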

Additional observations from a re-analysis of the deposited data

How the results depend on the processing

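Over 17 alternative fits, 601 of 606 values of single members kept their direction and their side of the threshold, and 0 were reversed. Most could hardly do otherwise, as 32 of the 36 tested members passed the filter on low counts only through the KO libraries. Of the other 4, Sprr1a, Lce3a and Crct1 were called in all 17 fits. The 5 values that changed side all belonged to Ivl, whose call was held in 12 of 17 fits. Its log2 fold change ranged from -0.95 with a length offset to -0.43 without KO replicate 2. The count of lower members, 1, was therefore 0 with glmTreat, and between 0 and 1 when a library was left out. The replicate numbers do not come from shared animals, and samples with the same number did not deviate together (correlations of 0.0345, -0.00998 and 0.0606, with only replicate 3 closest to its own number). With the replicate block the count of lower members was 0 (Ivl at -0.59, adjusted p = 0.0637, edgeR), 35 members stayed higher, and the block changed no other call of a member. Restricted to the 7 members with whole counts in every library, 5 were higher and 0 lower, 2 of the higher ones Sprr and 1 Lce, and 4 passed the threshold of the study, because the restriction leaves fewer genes. Of the regulator list 12 genes were called, and 6 with glmTreat, which tests against a fold of 2. In the other fits the number called lay between 11, without KO replicate 3, and 17, with the length offset. The share of all counts taken by the members was higher in KO by 1.67 percentage points, by 3.21 as a share of TPM, by 1.15 without Sprr1a, and by 1.44 to 1.92 when a library was left out.

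The depth does not separate absence from a low level for the 16 members at 0 in WT, and 21 members had at most 3 counts in each WT library, so their fold changes are bounds or wide intervals. How reads of 50 bases were divided within the Sprr2, Lce1 and Lce3 families limits the order of single genes. Family sums are less exposed, although up to 8.23% of the windows of an Lce1 gene (Lce1a1) also occurred in genes that are not members.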
